A study of Oryza sativa Japonica Group with 6 samples.

Results

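Antisense long non-coding RNAs (lncRNAs) are transcripts that overlap the exons of an annotated gene from the opposite strand. They were taken here as the rows of the authors' lncRNA table with class code x, leaving out 2 loci that also carried another class code. This gave 138 rows at 111 loci, of 578 lncRNA rows at 532 loci in all. A row is an assembled transcript named by its locus (MSTRG and a number), and 15 of the loci had more than 1 row. RNA came from endosperm, where the grain stores its starch, taken from the Japonica rice cultivar NingJing1 at 10 days after pollination. Field-grown plants were moved at booting to a growth chamber set to 36 °C in the day and 33 °C in the night (high temperature, called heat below, 3 samples) or to 28 °C and 25 °C (normal temperature, 3 samples). No other difference in genotype or treatment between the groups is given. Whether the 3 samples of a group are separate plants is not stated, and the p-values then cover only the spread among these samples, which may be technical.

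In plants, an antisense RNA can affect the gene it overlaps through the act of transcription, through chromatin or through pairing of the RNAs. COOLAIR, the antisense RNA of the Arabidopsis flowering repressor FLC, is linked to the shutdown of FLC in the cold, and in rice the antisense RNA TWISTED LEAF is linked to leaf shape through the gene OsMYB60. The sources used here do not name the gene that each antisense lncRNA overlaps, and only 2 loci described below could be matched to genes, by genomic span. The series design names ssRNA sequencing, read here as strand-specific, yet 236 of the 578 lncRNA rows have no strand. The sources do not say how strand was used in quantification. Whether reads of an antisense RNA and of the gene opposite it were kept apart is therefore unknown, and every level below carries that limit.

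The authors' deposited table of predicted microRNA pairings shows short stretches of these lncRNAs as sequence. A microRNA is a small RNA that guides cleavage or silencing of RNAs it pairs with, and in plants pairing is usually close to complete. The pairs below are shown because they belong to the 6 loci with a row called at 2-fold or more between the temperatures on the log2(FPKM + 1) scale, and to the most abundant locus. For each, the rice microRNA with the fewest unpaired positions among alignments without gaps is given, first the microRNA fragment and then the lncRNA site, both 5′ to 3′. Capitals mark bases 2 to 8 of the microRNA fragment and the bases of the site that face them.
osa-miR2275a fragment: uUUGGUUUccuccaauaucuca
MSTRG.15514 site: ugagauuuuagaggGAACCAGg
osa-miR5837.2 fragment: gGUGAUGUggagcguucggca
MSTRG.5112 site: ccccgaguuuuucAUAUCACu
osa-miR1440b fragment: uUUAGGAGagugguauuugag
MSTRG.7463 site: uucaugccucacuUUCCUAAg
osa-miR5796 fragment: uCAUUCAGgauugaagccgcc
MSTRG.7542 site: guuugcauuggucUUGAAUGa
osa-miR1862f fragment: aUGAGGUUgguuuauuuugg
MSTRG.3729 site: auuaaguagaucGAUCUCAu
osa-miR1850.1 fragment: uGGAAAGUugggagauugggg
MSTRG.17951 site: cuucaaacuuccaACUUUUCc
osa-miR5071 fragment: uCAAGCAUcauaucguggaca
MSTRG.17934 site: uuuuuguuguauaAUGCUUGa

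In the pair of MSTRG.15514 with osa-miR2275a, 2 of 22 positions were unpaired and 3 were G:U wobbles. The miR2275 family is known in grasses as a trigger of phased small RNAs in anthers. The pairs of MSTRG.3729 and MSTRG.17951 also had 2 unpaired positions, and those of MSTRG.5112, MSTRG.7463, MSTRG.7542 and MSTRG.17934 had 3. In all 7 pairs every capital base was paired, counting wobbles as paired. These pairs were picked for their fit, so the low counts of unpaired positions describe the choice.

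Over all antisense loci, the authors' deposited table held 1448 alignments to 107 of the 111 loci, with 532 microRNAs, of which 506 were from rice. A locus had a median of 6 microRNAs, against 8 over all lncRNA loci with an entry. MSTRG.20830, the longest antisense RNA, had the most, 85, and MSTRG.10977, which is next in length, had 65. The number of microRNAs per locus followed length across the 107 loci (Spearman's rho 0.684, a description across loci that share one prediction). The microRNAs with most antisense loci were osa-miR1858a and osa-miR1858b, with 10 each. Among the 1213 gap-free alignments the median number of unpaired positions was 4, and the range was 1 to 9. No cleavage or small RNA data were used here, so these are predictions only.

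Every one of the 138 antisense rows was spliced, meaning that its length was shorter than its genomic span. Among intergenic lncRNA rows (class u) this held for 26.2%, and among rows that overlap genes on the sense strand or lie in introns (classes i, j and o) for 67.1%. Strand was known for each of the 286 spliced rows of the lncRNA table, whereas 236 of the 292 unspliced rows had none. None of the 56 unspliced rows with a strand was in class x. A row without a strand cannot be placed opposite a gene.

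The antisense RNAs were short. Their spliced length had a median of 433.5 bases and quartiles of 301 and 604 bases, against a median of 534.5 bases for intergenic rows. The shortest were MSTRG.20213 and MSTRG.5188, both of 202 bases, and MSTRG.9639 of 215 bases. The longest were MSTRG.20830 with 5234 bases, MSTRG.10977 with 2880 bases and row 3 of MSTRG.14949 with 2438 bases. Genomic spans ran from 250 bases in MSTRG.13055 to 30938 bases in MSTRG.6133, whose spliced RNA has only 301 bases.

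**Figure D1:**
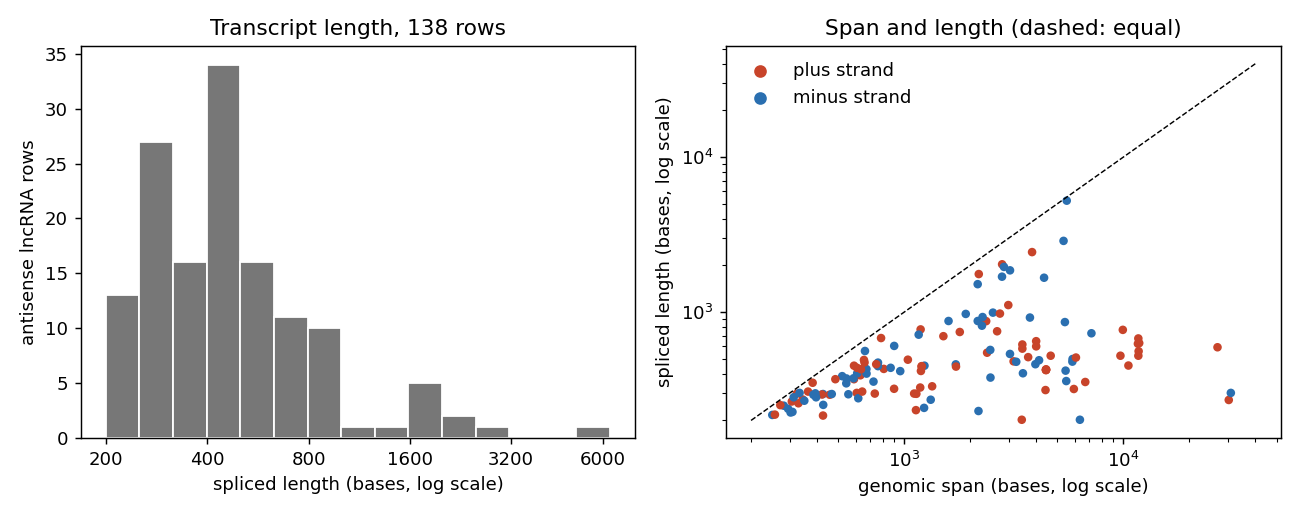
Left, histogram of the spliced length in bases (log axis) of the 138 antisense lncRNA rows. Right, spliced length against genomic span in bases (log axes), coloured by strand; all points lie below the dashed line of equality, since all rows were spliced, with quartiles of length at 301 and 604 bases and spans up to 30938 bases.

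Both strands were used about equally, with 55 loci (73 rows) on the plus and 56 loci (65 rows) on the minus strand. The antisense rows lay on all 12 chromosomes. Chromosome 2 and chromosome 4 held the most loci, 15 each, and chromosome 6 the fewest, 5. Antisense rows made up 40% of the lncRNA rows of chromosome 5 and 38.1% of those of chromosome 7, against 14% of those of chromosome 8. On chromosome 7 the share rests on 1 locus, MSTRG.17934, which gave 11 of the 16 rows.

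**Figure D2:**
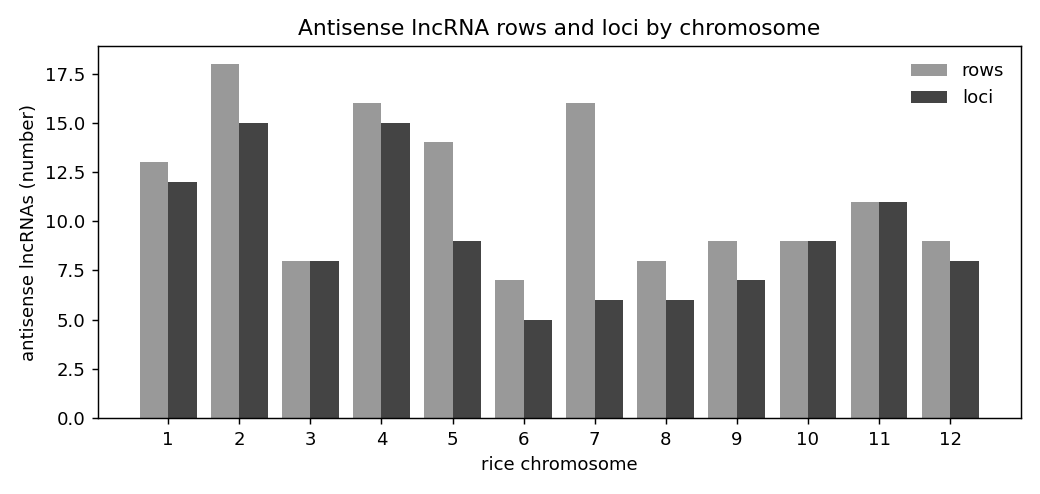
Number of antisense lncRNA rows (light bars) and loci (dark bars) on each of the 12 rice chromosomes. Rows exceed loci most on chromosome 7, where 16 rows belong to 6 loci, and on chromosome 5, where 14 rows belong to 9 loci.

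Some loci were close neighbours. On chromosome 10, MSTRG.3728 (17971365 to 17973627) and MSTRG.3729 (17974708 to 17975944) lie on the minus strand with 1080 bases between them. On chromosome 2, MSTRG.7540 and MSTRG.7542 lie on the minus strand 426 bases apart, and MSTRG.7544 follows on the plus strand after 3713 bases. The sources used here name no genome build for these positions.

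For 2 loci, the deposited positions of 6 starch-metabolism mRNAs showed genes whose genomic spans overlap theirs. The overlap was judged from spans alone, so which exons lie opposite was not checked. MSTRG.19883 (chromosome 8, plus strand, 15668880 to 15670010) lies wholly inside LOC_Os08g25734, which encodes AGPS2, a small subunit of ADP-glucose pyrophosphorylase, which supplies the glucosyl donor of starch. It was listed at 0 FPKM in every heated sample, against 0.43, 0.89 and 0 FPKM at normal temperature. The mRNA had 429, 438 and 443.8 FPKM in heat, against 1469, 1389 and 1456 FPKM at normal temperature. MSTRG.20213 (minus strand, 23335539 to 23341873) reaches across the neighbouring alpha-amylase genes AMY3E (LOC_Os08g36900) and AMY3D (LOC_Os08g36910), whose products break down starch. Its 202 spliced bases were listed at 0.12, 0 and 0.42 FPKM in heat, against 0.04, 0.01 and 0 FPKM at normal temperature. AMY3E had 481, 477 and 502 FPKM in heat, against 159, 148 and 144 FPKM at normal temperature. AMY3D was near the floor, with 0.74, 0.92 and 0.99 FPKM in heat, against 0.01, 0 and 0 FPKM at normal temperature. Both antisense RNAs were below the level tested here, so no direction is given for either.

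FPKM (fragments mapped, scaled by transcript length and library size) is the unit of all levels. Sequencing depth is unknown, as the values are not read counts, and the FPKM of all genes summed to between 365035 and 380742 per sample. All 7 markers of starchy endosperm were present, with summed levels of 25417 to 26041 FPKM in heat, against 15327 to 15999 FPKM at normal temperature. That sum is mostly 2 glutelins, GLUB4 with group means of 11578 and 5499 FPKM and GLUB1 with 12890 and 7115 FPKM. The other 5 markers were lower in heat, among them GBSSI, the amylose synthase, with means of 493 and 1380 FPKM, and the branching enzyme BEIIb with 82.8 and 317 FPKM. Of 4 embryo and aleurone markers, 3 were matched. Their sum was 805 to 840 FPKM in heat, against 114 to 611 FPKM at normal temperature, the highest being normal temperature sample 2. Group means were 150 and 27.1 FPKM for RAB16A, 661 and 252 FPKM for OLE16b, and 14.9 and 13.3 FPKM for VP1. In normal temperature sample 2, OLE16b had 569 FPKM. The 3 green pericarp markers summed to 69.8 to 98.3 FPKM in heat, against 109 to 135 FPKM at normal temperature. Of these 3, only CAB2R separated the groups, with means of 35.9 FPKM in heat and 74.1 FPKM at normal temperature. The groups overlapped in RBCS2, with means of 38.6 and 39.4 FPKM. They also overlapped in RBCS5, with 2.77, 11.64 and 12.58 FPKM in heat, against 3.83, 16.9 and 12.98 FPKM at normal temperature. No matched marker was at 0. The part of these shifts in the differences below was not tested. In whole tissue, fewer cells of a type and less RNA per cell cannot be told apart.

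Antisense RNAs were mostly rare. The mean level over the 6 samples had a median of 0.827 FPKM over the 138 rows, against 0.877 FPKM for intergenic rows, and 64 antisense rows reached 1 FPKM and 13 reached 5 FPKM. Longer ones were more abundant per length, with a median of 1.66 FPKM in 36 rows of 600 bases or more, 0.722 FPKM in 68 rows of 300 to under 600 bases and 0.457 FPKM in 34 shorter rows. In 34 of the 138 rows at least 1 sample was listed at 0, which can be a failed estimate. The 96 rows with a mean of at least 0.5 FPKM, at 76 loci, were tested. The other 42 rows had means up to 0.493 FPKM and single values up to 2.43 FPKM.

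MSTRG.17934 outweighed all other antisense loci. It lies on the plus strand of chromosome 7 from 6609174 to 6621123. Its 11 rows summed to 602, 695 and 576 FPKM in heat, against 351, 346 and 327 FPKM at normal temperature. The groups do not overlap, and the sum rose from 341 ± 12.9 to 624 ± 62.3 FPKM (SD, n = 3). The log2 fold change of the sum was 0.86 with a standard error of 0.15 (limma, adjusted p = 0.00611). This locus held 49.6% to 77.8% of the summed FPKM of all antisense rows in each sample.

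The rows of MSTRG.17934 were far less even than their sum. Row 7, of 523 bases, was the most abundant antisense RNA, with 280, 279 and 294 FPKM in heat, against 147, 165 and 196 FPKM at normal temperature. Row 6, of 676 bases, had 45.0, 54.2 and 45.8 FPKM in heat, against 21.7, 32.1 and 28.0 FPKM at normal temperature. In these rows all high temperature samples lay above all normal temperature samples, and both rose, with log2 fold changes of 0.75 (standard error 0.20, limma adjusted p = 0.0347) and 0.81 (standard error 0.24, limma adjusted p = 0.048). Row 6 did not pass whichever single sample was left out (adjusted p from 0.0528 to 0.111). Row 7 lost its call when high temperature samples 1 or 3, or normal temperature samples 1 or 2, were left out (adjusted p from 0.0605 to 0.112).

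Other rows of the same locus jumped between samples. Row 1 was listed at 144 FPKM in high temperature sample 2 and at 0 in the other 5 samples. Row 11 had 183, 31.7 and 94.1 FPKM in heat, against 107, 3.68 and 40.4 FPKM at normal temperature. Row 4 was listed at 0, 25.3 and 22.1 FPKM in heat, against 9.80, 0 and 0 FPKM at normal temperature. The groups overlap in each of these rows, and none passed. Row 8, with 32.8, 35.1 and 26.6 FPKM in heat, against 15.02, 47.81 and 16.95 FPKM at normal temperature, passed only when normal temperature sample 2 was left out (limma, adjusted p = 0.0486). Rows 2, 3 and 4 share their start, and their ends lie at 6613670, 6613671 and 6613672; how fragments were divided among such rows is not stated.

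**Figure D3:**
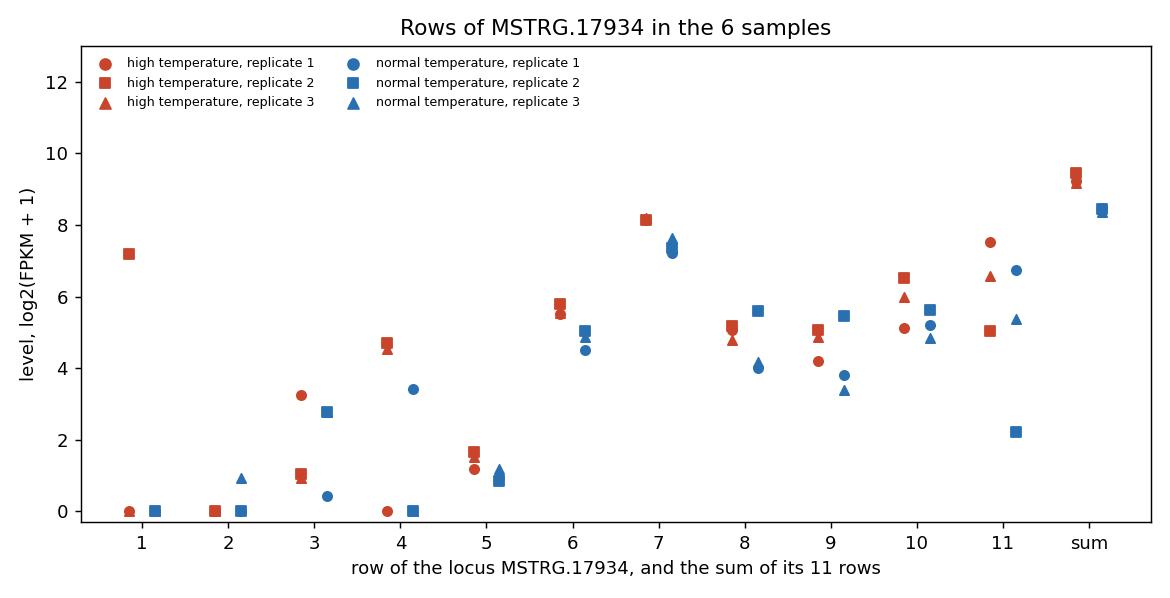
Level as log2(FPKM + 1) of each of the 11 rows of MSTRG.17934 and of their sum; red marks high and blue normal temperature, and the marker shape gives the replicate number. Rows 1, 4 and 11 scatter widely within a group, rows 6 and 7 separate the groups, and the sum lies at 576 to 695 FPKM in heat, against 327 to 351 FPKM at normal temperature.

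Of the 96 tested antisense rows, 8 rose and 8 fell in high temperature (limma on log2(FPKM + 1), Benjamini-Hochberg adjusted p under 0.05). Over all 455 lncRNA rows tested, 27.3% were called, 11.6% higher and 15.6% lower, against 16.7%, 8.33% and 8.33% of the antisense rows. On that scale, a change of at least 2-fold was called in 7.29% of the antisense rows, against 13.8% of all rows tested. The median log2 fold change was 0.11 for antisense rows and -0.10 for all lncRNA rows, and it was above 0 for antisense and below 0 for all lncRNA rows under every setting run. It was 0.061 for antisense loci with rows summed by locus, and -0.036 for all lncRNA rows after trimmed-mean scaling. It was 0.049 in antisense loci with a single row and 0.41 in rows of loci with several. Fold changes on this scale understate the change of low rows. The groups did not overlap in 33 antisense rows, or 34.4%, against 45.3% of all tested rows. High temperature lay above in 20 of the 96 antisense rows and below in 13. Over all 455 tested rows it lay above in 85, or 18.7%, and below in 121, or 26.6%. Leaving out high temperature sample 1 or sample 3 left 4 rows called higher, and leaving out normal temperature sample 2 or 3 left 5. With high temperature sample 2, high temperature sample 3 or normal temperature sample 3 left out, 5 rows were called lower. Calls over all 455 lncRNA rows also dropped with 1 sample left out, to between 94 and 122 from 124.

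**Figure D4:**
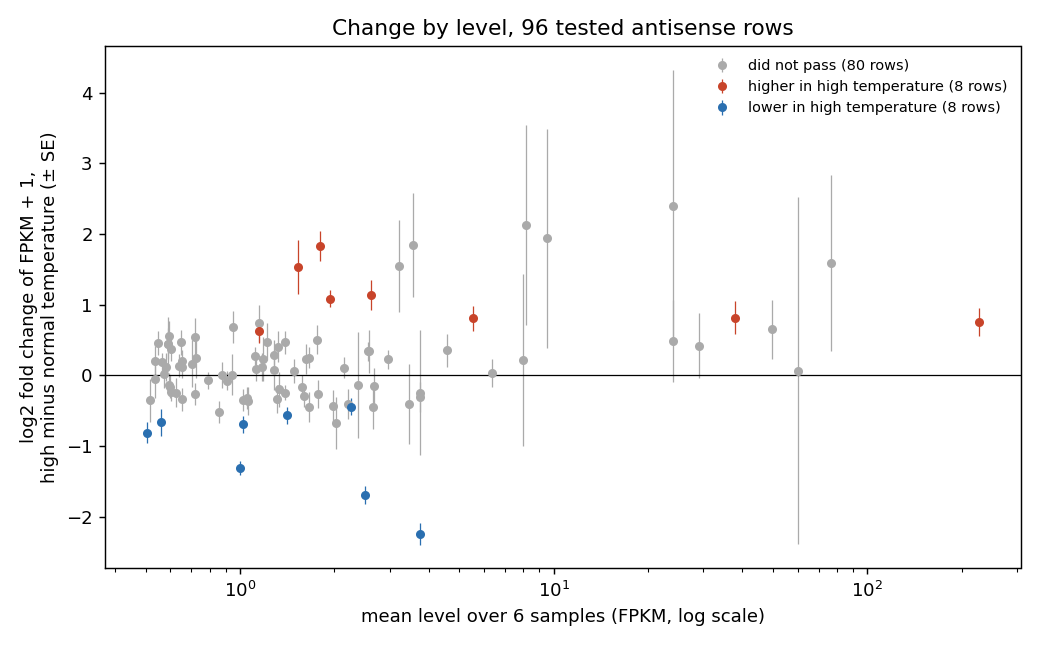
Log2 fold change of FPKM + 1, high minus normal temperature, with its standard error, against the mean FPKM (log axis) of the 96 tested antisense rows. The 8 rows called higher (red) reach up to 227 FPKM, the 8 called lower (blue) have means under 4 FPKM, and the widest error bars belong to abundant rows that did not pass.

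The largest fall was at MSTRG.15514 (chromosome 5, plus strand, 26911157 to 26914141), whose site for osa-miR2275a is printed above. Row 2, of 1110 bases, had 0.62, 0.53 and 0.83 FPKM in heat, against 8.02, 6.59 and 5.96 FPKM at normal temperature. It fell to 0.66 ± 0.154 FPKM from 6.86 ± 1.06 FPKM, a log2 fold change of -2.24 (standard error 0.15, limma, adjusted p = 0.000196). Row 1, of 978 bases, had 0.87, 0.62 and 0.49 FPKM in heat, against 4.32, 4.32 and 4.45 FPKM at normal temperature, a log2 fold change of -1.70 (limma, adjusted p = 0.000273). All high temperature samples of both rows were lower than every normal temperature sample, and both rows kept the call under all settings run.

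MSTRG.5112 (chromosome 11, minus strand, 21708460 to 21711498), an RNA of 1859 bases, had 0.13, 0.12 and 0.20 FPKM in heat, against 1.67, 1.96 and 1.93 FPKM at normal temperature. The groups are well apart, and it fell with a log2 fold change of -1.31 (standard error 0.10, limma adjusted p = 0.000273). MSTRG.7540 (chromosome 2, minus strand, 9580644 to 9581510) was listed at 0.17, 0.11 and 0 FPKM in heat, against 1, 0.75 and 1 FPKM at normal temperature, a log2 fold change of -0.81. MSTRG.807 (chromosome 1, minus strand, 10932980 to 10933641) fell to 0.543 ± 0.0987 FPKM from 1.503 ± 0.290 FPKM (SD, n = 3), with a log2 fold change of -0.69. These 3 calls were kept under all settings run. MSTRG.7540, with a mean of 0.505 FPKM over all samples, was not tested with a minimum mean of 1 FPKM.

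The other falls were smaller and less steady. MSTRG.6010 (chromosome 12, plus strand, 9982091 to 10012361) joins 271 bases out of a span of 30271 bases, and it fell to 0.943 ± 0.130 FPKM from 1.89 ± 0.309 FPKM, a log2 fold change of -0.57. It lost its call when high temperature samples 2 or 3, or normal temperature sample 3, were left out (limma, adjusted p from 0.0537 to 0.0708). Row 2 of MSTRG.14922 on chromosome 5 had 0.20, 0.28 and 0.11 FPKM in heat, against 0.55, 1.39 and 0.83 FPKM at normal temperature (log2 fold change -0.66, limma adjusted p = 0.048). That call was lost after trimmed-mean scaling (adjusted p = 0.0598) and on leaving out each sample in turn except normal temperature sample 1 (adjusted p from 0.0727 to 0.111). Row 3 of MSTRG.14949 had 1.90, 1.87 and 1.53 FPKM in heat, against 2.73, 2.59 and 2.97 FPKM at normal temperature, a log2 fold change of -0.45. Its call was lost after trimmed-mean scaling (adjusted p = 0.0797), after quantile normalization (adjusted p = 0.0503) and whichever single sample was left out (adjusted p from 0.0702 to 0.135).

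Among the rises, MSTRG.7463 (chromosome 2, minus strand, 8057746 to 8058418) had the largest on the log2(FPKM + 1) scale. With a pseudocount of 0.1 its row 1 had a log2 fold change of 3.46, and row 1 of MSTRG.7542 had 3.60. Its row 1, of 403 bases, had 2.21, 3.30 and 4.63 FPKM in heat, against 0.14, 0.26 and 0.22 FPKM at normal temperature. The lowest high temperature sample was far above the highest normal temperature sample, and the log2 fold change was 1.82 with a standard error of 0.21 (limma, adjusted p = 0.00136). Row 2 of that locus, with 0.57, 1.5 and 0.35 FPKM in heat, against 0, 0 and 1.11 FPKM at normal temperature, did not pass, and the sum of its 3 rows did (log2 fold change 1.93, limma adjusted p = 0.00912).

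MSTRG.17951 (chromosome 7, minus strand, 6850597 to 6852761), of 876 bases, had 3.32, 2.70 and 2.96 FPKM in heat, against 0.88, 0.80 and 0.96 FPKM at normal temperature. Within each group the samples were close, and it rose with a log2 fold change of 1.08 and a standard error of 0.12 (limma, adjusted p = 0.00104). MSTRG.3729, of 451 bases, had 3.99, 3.98 and 3.83 FPKM in heat, against 1.11, 0.76 and 2.01 FPKM at normal temperature, a log2 fold change of 1.14 (limma, adjusted p = 0.00896). Its neighbour on the same strand, MSTRG.3728, had 5.13, 7.76 and 6.53 FPKM in heat, against 5.46, 6.83 and 6.39 FPKM at normal temperature and did not pass (limma, adjusted p = 0.902). The difference between these neighbours was not tested.

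Another group of neighbours had calls in both directions. Row 1 of MSTRG.7542 (chromosome 2, minus strand, 9581937 to 9582231) was listed at 4.37, 1.3 and 2.65 FPKM in heat, against 0.87, 0 and 0 FPKM at normal temperature, and it rose (log2 fold change 1.53, limma adjusted p = 0.0305). MSTRG.7540, 426 bases away, fell as given above. The rise of MSTRG.7542 lost its call when high temperature samples 1 or 3, or normal temperature samples 2 or 3, were left out (adjusted p from 0.0813 to 0.0998). Row 2 of MSTRG.7542 was listed at 0.09, 0.55 and 48.3 FPKM in high temperature and at 0 in the 3 normal temperature samples, and it did not pass. MSTRG.7544, on the other strand, was listed at 0, 120 and 12 FPKM in heat, against 5.14, 223 and 0 FPKM at normal temperature. Its values spread over the whole range within both groups.

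MSTRG.27 (chromosome 1, minus strand, 227149 to 227430), of 249 bases, rose to 7.29 ± 0.165 FPKM from 3.79 ± 0.798 FPKM (SD, n = 3), with a log2 fold change of 0.81 (limma, adjusted p = 0.0192). It lost its call without high temperature sample 3 (adjusted p = 0.0619) and without normal temperature sample 3 (adjusted p = 0.0532). MSTRG.13528 (chromosome 4, minus strand, 30213944 to 30214370) had 1.32, 1.34 and 2.21 FPKM in heat, against 0.57, 0.58 and 0.90 FPKM at normal temperature, a log2 fold change of 0.63 (limma, adjusted p = 0.0366). Its call was lost whichever single sample was left out (adjusted p from 0.0532 to 0.102).

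**Figure D5:**
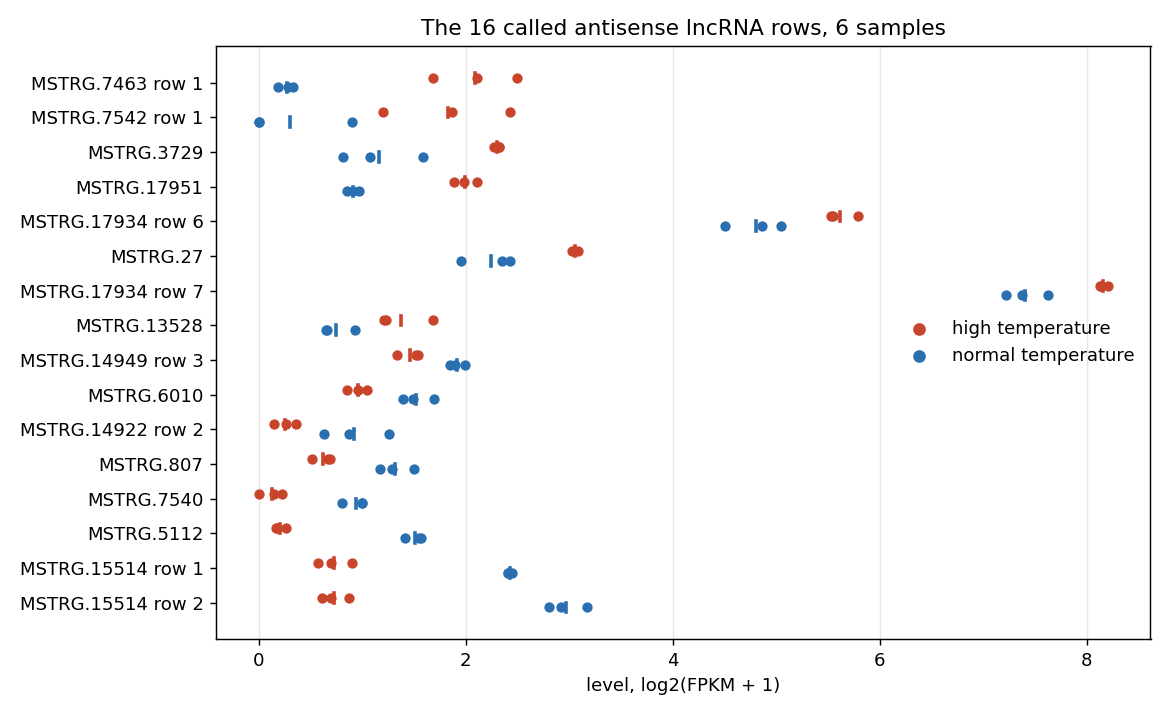
Level as log2(FPKM + 1) of the 16 called antisense rows in the 3 high temperature (red) and 3 normal temperature (blue) samples, with a bar at each group mean, ordered from the largest rise to the largest fall. The groups do not overlap in any of the 16 rows, and the gap is widest in both rows of MSTRG.15514 and in row 1 of MSTRG.7463.

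The other 80 tested rows did not pass, and 66 of them had a log2 fold change within 0.5 of 0. The row nearest to the threshold was MSTRG.5749, with 0.70, 0.49 and 0.39 FPKM in heat, against 1.07, 0.90 and 1.61 FPKM at normal temperature (limma, adjusted p = 0.0554). It passed after quantile normalization (adjusted p = 0.0426) and when lncRNA and mRNA rows were fitted together (adjusted p = 0.0485). MSTRG.20830, the longest antisense RNA, had 1.36, 1.45 and 1.33 FPKM in heat, against 0.86, 0.66 and 0.05 FPKM at normal temperature (limma, adjusted p = 0.0661), and it passed without normal temperature sample 1 (adjusted p = 0.0459). Row 3 of MSTRG.16739 had 7.91, 10.6 and 0.84 FPKM in heat, against 0.78, 1.31 and 0 FPKM at normal temperature, and here high temperature sample 3 lies among the normal temperature samples. Without that sample the row passed, with a log2 fold change of 2.67 (limma, adjusted p = 0.00896), against 1.84 over all samples (adjusted p = 0.115). MSTRG.10977 had 3.77, 3.04 and 3.06 FPKM in heat, against 2.63, 2.66 and 2.69 FPKM at normal temperature, a log2 fold change of 0.22 (limma, adjusted p = 0.245).

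Among the 15 loci with more than 1 row, rows of 1 locus often differed. Row 1 of MSTRG.2250 had a log2 fold change of -0.27 and row 2 one of 0.47, neither past the test, although row 2 passed without high temperature sample 2 (limma, adjusted p = 0.0479). The sum of both had 2.38, 2.3 and 2.65 FPKM in heat, against 1.96, 2.46 and 2.80 FPKM at normal temperature. The 3 rows of MSTRG.14949 summed to 5.42 ± 0.946 FPKM in heat, against 5.15 ± 1.20 FPKM at normal temperature (SD, n = 3), although row 3 fell. The rows of MSTRG.15291 did not pass singly, and their sum rose from 0.63 ± 0.089 to 1.74 ± 0.789 FPKM (log2 fold change 0.71, limma adjusted p = 0.0444). With rows summed by locus, 12 of 76 antisense loci tested were called, or 15.8%, against 27.9% of all 423 lncRNA loci tested. Of the 12, 11 also had a called row. Locus sums were fitted only with all samples and the main settings. The stability of the sums of MSTRG.7463, MSTRG.15291, MSTRG.15514 and MSTRG.17934 was therefore not examined. The loci MSTRG.7542, MSTRG.14922 and MSTRG.14949 had a called row and no call on the sum. MSTRG.5668, MSTRG.12525, MSTRG.19591, MSTRG.20056 and MSTRG.20834 had no call by row or by sum, although row 2 of MSTRG.19591 passed when lncRNA and mRNA rows were fitted together (limma, adjusted p = 0.0418). MSTRG.21244 lay under 0.5 FPKM in all samples, and MSTRG.16739 had a sum of 9.89, 11.7 and 0.84 FPKM in heat, against 0.78, 1.31 and 0.09 FPKM at normal temperature.

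The authors' deposited table of changed lncRNAs listed 59 rows, or 10.2% of all lncRNA rows, and 8 of them were antisense, or 5.8% of the antisense rows. By locus, the authors' deposited table gave MSTRG.5112, MSTRG.14922, MSTRG.15514, MSTRG.17934, MSTRG.20572 and MSTRG.20834 as down and MSTRG.10681 as up. Falls were called here too at MSTRG.5112, at both rows of MSTRG.15514 and at row 2 of MSTRG.14922. MSTRG.17934 is down in the authors' deposited table, which does not say which of its 11 rows is meant, while the 2 rows of it called here rose. Only rows 2 and 3 of that locus had a lower mean in high than in normal temperature. MSTRG.10681, up in the authors' deposited table, had 0.24, 0.31 and 0.53 FPKM in heat, against 0.80, 0.36 and 0.42 FPKM at normal temperature, with the groups overlapping. MSTRG.20572 had 1.49, 1.65 and 1.15 FPKM in heat, against 1.33, 2.21 and 1.64 FPKM at normal temperature and did not pass (limma, adjusted p = 0.49). The sources used here do not give the authors' test or thresholds.

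The authors' deposited table of starch-metabolism mRNAs pairs 4 antisense transcripts with 6 mRNAs in 16 pairs. MSTRG.5112 and both transcripts of MSTRG.15514 were paired with 5 mRNAs, and MSTRG.20834 with 1. Deposited Pearson correlations were positive in 10 pairs and negative in 6, with absolute values from 0.958 to 0.999. The positive ones include AGPS2, LOC_Os09g12660 with the same enzyme annotation, and the starch synthase LOC_Os06g12450, and the negative ones are with AMY3E and AMY3D. The samples form 2 groups of 3, and MSTRG.5112 and MSTRG.15514 differed between them, as did the mRNAs paired with them, so a correlation over all 6 samples mostly restates that difference for these. For instance, LOC_Os09g12660 had 56.7 ± 2.73 FPKM in heat, against 175 ± 9.22 FPKM at normal temperature (SD, n = 3). In each row of MSTRG.20834 the groups overlapped. Its row 2 had 4.03, 3.18 and 2.51 FPKM in heat, against 3.40, 5.23 and 4.11 FPKM at normal temperature (limma, adjusted p = 0.307). The sum of its rows did not overlap, with 4.71, 5.37 and 3.54 FPKM in heat, against 7.96, 6.74 and 6.26 FPKM at normal temperature. That sum did not pass (log2 fold change -0.54, limma adjusted p = 0.074). None of the 16 pairs lay on 1 chromosome, so none of these mRNAs is the gene opposite. Recomputed from the FPKM, 15 of the 16 correlations came within 0.01 of the value in the authors' deposited table. For MSTRG.20834 the recomputed value was 0.733, and the authors' deposited table gives 0.966.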

How the data were processed

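The protocols in the labels describe ribosomal RNA depletion of total RNA and paired sequencing on an Illumina instrument. Tools listed, without roles, per the submitters' processing notes are StringTie 1.3.0, HISAT2 2.0.4, FastQC 0.10.1 and cutadapt 1.10. No source used here names the genome build or says how strand entered the quantification. Expression was deposited by the authors as FPKM, per the file headers, with 1 column per sample. The score in the authors' deposited starch table is a Pearson correlation. Of the deposited microRNA alignments, 3 lines were empty and not used.

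The expression table lists lncRNA loci in the order of the lncRNA table, and rows of a locus were joined in that order. In 15 of 15 deposited correlations that could check it, the row so joined was closer than the other rows of its locus. This check set no limit on the distance. It includes row 2 of MSTRG.20834, recomputed at 0.733 against a deposited 0.966, and several pairs of both rows of MSTRG.15514. No other antisense locus with several rows had such a pair, so the row order of MSTRG.17934 and the rest was not checked. Tests used limma 3.58.1 in R 4.3.3 on log2(FPKM + 1) with a trended prior, two-sided, adjusted over all 455 lncRNA rows with a mean of at least 0.5 FPKM. The scripts were tested on simulated data. Sensitivity to pseudocount, filter, scaling, joint fitting with mRNAs, locus sums, replicate block and single samples was tried.

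Named rows were those called, the 10 most abundant, the 4 largest uncalled changes each way, those in the authors' tables, the 3 longest and shortest, those at 0 in a whole group, loci with several rows, and the 6 most abundant with microRNAs. Of these 64 rows, those needed for the comparisons are printed. MSTRG.19883, MSTRG.6133 and the neighbours were chosen after their values were seen. Members and lists were chosen with earlier results of these data known. Marker symbols were paired with LOC identifiers by hand from rice nomenclature.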

Additional observations from a re-analysis of the deposited data

How the results depend on the processing

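Of the 16 called antisense rows, 8 kept the call under all settings run, 8 lost it under at least 1, and none changed direction. With the rows of a locus summed, 5 antisense loci were called lower. With a minimum mean of 1 FPKM, 76 of all lncRNA rows were called, among fewer rows tested. Leaving out 1 sample at a time gave 4 to 8 antisense rows called higher and 5 to 7 called lower. Over all 455 lncRNA rows tested, the same fits called 94 to 122, against 124 with all samples. The other settings kept these counts within 1.5 times. Whether replicate numbers pair the samples is not settled. Correlations of same-numbered deviations were 0.018, 0.31 and -0.0090 over lncRNA rows, and those of differently numbered ones ran from -0.26 to 0.27. With 3 samples per group, such correlations cannot exclude pairing. A replicate block gave 9 antisense rows called higher, 6 lower and 114 of all lncRNA rows called; row 2 of MSTRG.14922 (adjusted p = 0.0684) and row 3 of MSTRG.14949 (adjusted p = 0.0889) then lacked a call, and row 3 of MSTRG.16739 gained one (adjusted p = 0.031). Changes that turned sign were all in uncalled rows. With a pseudocount of 0.1, the log2 fold change was -0.023 for row 1 of MSTRG.12525 and -0.65 for MSTRG.17884; after quantile normalization the former was -0.046. Leaving out 1 sample gave ranges of -0.084 to 0.17 for MSTRG.3728, -1.68 to 2.23 for MSTRG.7544, -0.16 to 0.16 for row 1 of MSTRG.12525, -0.25 to 0.29 for row 1 of MSTRG.14922, -1.004 to 1.46 for MSTRG.17884, 0.0 to 3.59 for row 1 of MSTRG.17934, -1.03 to 0.15 for its row 3, -0.062 to 0.27 for row 1 of MSTRG.19591 and -0.053 to 0.29 for row 2 of MSTRG.20056. The causes were not tested. Trimmed-mean scaling moved the median log2 fold change of tested mRNA rows from -0.08 to 0.00. Depth is unknown, so no detection limit can be given.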
